A study of Homo sapiens with 9 samples.

Results

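The 10 genes described here receive or handle adenosine and extracellular nucleotides. ADORA1, ADORA2A and ADORA2B encode the A1, A2a and A2b adenosine receptors, and P2RY2 and P2RY6 encode P2Y receptors for extracellular nucleotides. NT5E, ADA and ADK encode enzymes that make or remove adenosine, and SLC29A1 and SLC29A2 encode equilibrative nucleoside transporters. They were picked by symbol from the 20777 genes of the deposited count table, and every one of the 10 was listed. The cells were LX-2, an immortalised human hepatic stellate line, so that all libraries come from 1 line grown in culture. In total 9 RNA-seq libraries were analysed in 3 groups of 3: LX-2 cells with no treatment in their labels (control), cells given TGF-β, and cells given TGF-β and uridine (TGF-β + uridine). The labels place both treatments on day 1 and give no day for the control libraries, and the study's methods describe TGF-β first, followed by a change to medium with uridine. The study used this design to ask what TGF-β changes in stellate cells and what uridine adds, and it followed ADORA1 as a candidate receptor for uridine.

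Extracellular ATP and UTP are broken down stepwise at the cell surface to nucleoside monophosphates, and the ecto-enzyme CD73, the product of NT5E, removes the last phosphate to release adenosine or uridine. Adenosine then binds its receptors or enters the cell through equilibrative transporters, which also carry uridine. Inside the cell adenosine kinase turns it back into AMP, and adenosine deaminase turns it into inosine. The A1 receptor couples to Gi and lowers cAMP, whereas the A2a and A2b receptors couple to Gs and raise it. The P2Y2 receptor is activated by ATP and UTP and the P2Y6 receptor by UDP, both through Gq. In the liver, activated stellate cells are the main source of scar matrix, and adenosine receptors and CD73 have been studied in them as regulators of fibrosis.

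The libraries held 40539751 to 41467124 counts on genes. A gene without a read in a library has an upper limit of 3 counts, or 0.0723 to 0.0740 CPM (counts scaled to library size), for counting error only. Of the listed genes, 13384 passed edgeR's filter on low counts, and 9 of the 10 genes described here were among them. ADORA2A failed the filter. The TGF-β response gene PMEPA1 followed the labels, at 5.97 to 8.63 FPKM in control, 40.5 to 43.6 in TGF-β and 36.6 to 42.0 in TGF-β + uridine libraries (FPKM: reads scaled to gene length and library total). The stellate label was only partly borne out. Of 11 stellate and fibroblast markers, 5 (PDGFRB, COL1A1, VIM, DES and ACTA2) exceeded 1 FPKM in every library, whereas COL1A2 reached at most 0.00475 FPKM, and PDGFRA and LRAT were not listed. The summed level of the stellate and fibroblast list was 463 to 561 FPKM in control, 874 to 891 in TGF-β and 777 to 801 in TGF-β + uridine libraries. Nearly all of it was VIM, at 438 to 540, 834 to 852 and 741 to 766 FPKM in the 3 groups. COL3A1, LUM and DCN stayed below 1 FPKM. The 4 epithelial markers summed to 596 to 803, 1131 to 1179 and 833 to 974 FPKM in the 3 groups, nearly all of it the keratin KRT7, while EPCAM and CDH1 stayed below 1 FPKM. The 5 leukocyte markers summed to 2.28 to 2.71, 9.18 to 10.5 and 8.33 to 8.86 FPKM, with only CSF1R above 1 FPKM in every library. Hepatocyte markers summed to at most 0.0985 FPKM and endothelial markers to at most 0.417 FPKM. The part of these markers in the results was not tested. The dependence of log2 CPM on gene GC content also varied between libraries. Its slope, in log2 CPM per unit of GC fraction, was 5.65, -0.73 and -4.10 in control replicates 1, 2 and 3, between -0.32 and 0.54 in TGF-β libraries and between -2.69 and 2.28 in TGF-β + uridine libraries.

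Promoter windows from RefSeq on GRCh38.p14 are shown for the genes that the results turn on and that the table held, which leaves P2RY2 unshown. Each runs from 250 bases before to 50 bases after the annotated start, 5′ to 3′ on the plus strand. NT5E (chr6:85449833-85450132) is the enzyme gene that rose with TGF-β, ADORA2B (chr17:15944880-15945179) is the adenosine receptor gene whose TGF-β libraries all lay below the control libraries, and ADORA1 (chr1:203127476-203127775) is the receptor followed by the study. Capitals mark a match to any of 3 motifs.
NT5E: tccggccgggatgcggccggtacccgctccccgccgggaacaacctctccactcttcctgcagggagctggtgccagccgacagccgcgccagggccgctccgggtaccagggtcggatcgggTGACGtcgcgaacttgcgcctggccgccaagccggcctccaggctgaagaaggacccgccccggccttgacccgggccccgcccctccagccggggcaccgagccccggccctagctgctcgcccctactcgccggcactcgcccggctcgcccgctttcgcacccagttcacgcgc
ADORA2B: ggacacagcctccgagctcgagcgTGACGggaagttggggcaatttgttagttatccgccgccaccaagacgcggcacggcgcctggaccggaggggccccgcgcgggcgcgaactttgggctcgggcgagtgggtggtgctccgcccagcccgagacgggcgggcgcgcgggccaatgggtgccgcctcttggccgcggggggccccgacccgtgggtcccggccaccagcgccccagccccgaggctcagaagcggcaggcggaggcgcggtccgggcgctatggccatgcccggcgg
ADORA1: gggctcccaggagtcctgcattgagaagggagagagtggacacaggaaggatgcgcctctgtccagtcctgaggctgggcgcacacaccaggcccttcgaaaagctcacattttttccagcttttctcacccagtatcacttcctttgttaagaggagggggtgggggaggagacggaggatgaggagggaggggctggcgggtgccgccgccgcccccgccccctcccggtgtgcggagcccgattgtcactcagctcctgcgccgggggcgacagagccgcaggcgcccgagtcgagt

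The motifs, searched on both strands, were the CRE half-site TGACG, the AP-1 site TGACTCA and the SMAD element CAGAC, which share no full match with one another. They were chosen after the windows had been seen. Of 35114 RefSeq promoter windows of 300 bases, 24.6% held the CRE half-site, 4.95% the AP-1 site and 45.3% the SMAD element. In NT5E and in ADORA2B the only match was 1 CRE half-site, beginning at -127 in NT5E and at -226 in ADORA2B. The ADORA1 window held none of these letters. With the 5 windows of ADA, ADK and SLC29A1, 6 of the 10 genes had a window, and a match in it is a description of letters, not of binding.

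The study measured ADORA1 by RT-qPCR with a primer pair whose position tells which transcripts that assay could see.
Forward primer: ccacagacctacttccacacc
Reverse primer: taccggagagggatcttgacc

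On GRCh38 the forward primer lies within 1 exon of ADORA1, on chromosome 1 from 203129058 to 203129078. The reverse primer crosses an exon junction between 203129165 and 203165263. Of the 9 ADORA1 transcripts in GENCODE v29, 3 hold both primers, with an amplicon of 128 bases, and no transcript of another gene matched. The counts below are of all reads assigned to the gene, whichever transcript they came from.

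The groups were compared gene by gene with the two-sided quasi-likelihood test of edgeR, fitted to all 9 libraries, and called at a Benjamini-Hochberg adjusted p under 0.05 over all 13384 genes. Nothing in the labels says that replicates were separate cultures, so that p-values measure the spread between these libraries. An exact permutation test of 3 libraries against 3 cannot give a p below 0.1. After TGF-β, 2 of the 9 genes tested were called, 2 higher and 0 lower, against a background of 3.38% of all genes tested, 2.42% higher and 0.964% lower. After addition of uridine to TGF-β, 0 of 9 were called by edgeR (background 0.0448%), 0 of 9 had an unadjusted p under 0.05 (background 8.79%), and DESeq2 called 0. Between TGF-β + uridine and control, 2 of 9 were called, 2 higher and 0 lower, against 5.33% of all genes tested, 2.89% higher and 2.44% lower. At an unadjusted p under 0.05 there were 4 of 9 in that comparison, against 17.6% of all genes. The TGF-β and TGF-β + uridine comparisons share the control libraries and called the same genes, P2RY2 and NT5E. The median log2 fold change of the 9 genes was 0.21, -0.03 and 0.18 in the TGF-β, uridine and combined comparisons, and that of all genes tested was -0.05, 0.02 and -0.01.

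**Figure D1:**
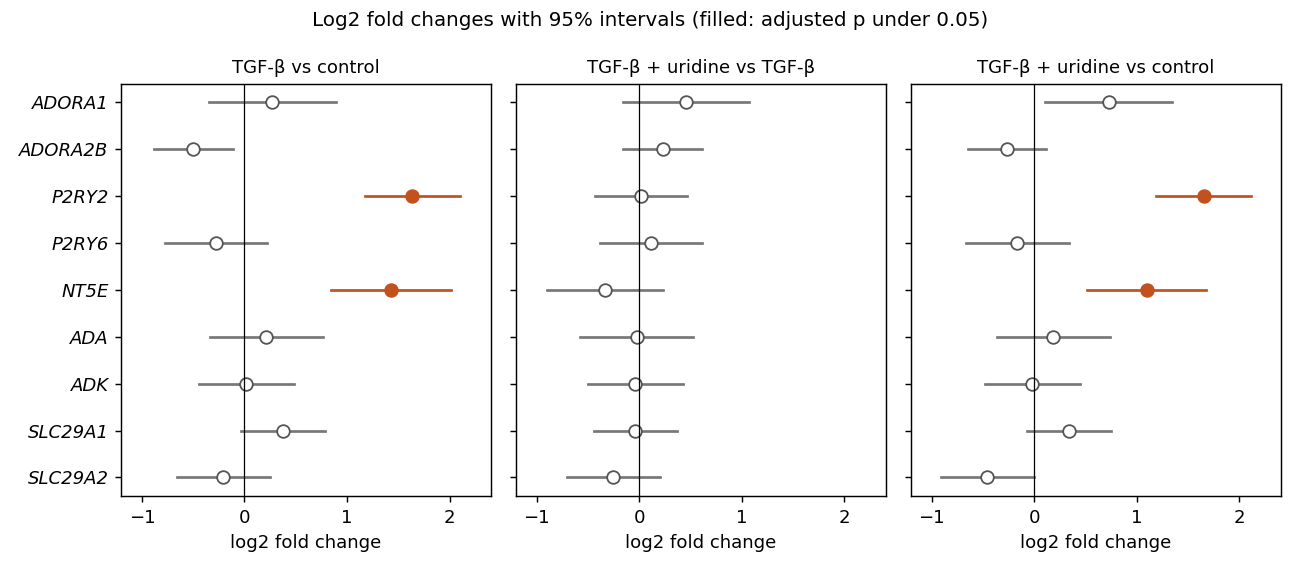
Log2 fold changes of the 9 tested genes on the x axis for the 3 comparisons, with 95% intervals from the edgeR fit as lines. Filled points had an adjusted p under 0.05, which were P2RY2 (1.64 and 1.65) and NT5E (1.43 and 1.096) in both comparisons with control and none in the comparison of TGF-β + uridine with TGF-β.

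P2RY2, the receptor for extracellular ATP and UTP on chromosome 11 (GRCh38, 73218298 to 73236352), changed most among the 9 genes in both comparisons with control. Its CPM, normalized by TMM, was 7.02, 4.19 and 4.43 in control replicates 1, 2 and 3, 16.5, 15.8 and 16.3 in the TGF-β libraries, and 15.7, 16.6 and 16.8 in the TGF-β + uridine libraries. All 6 treated libraries lay above all 3 control libraries, and the 2 treated groups overlapped. Mean levels were 5.21 ± 1.57 CPM (SD, n = 3) in control and 16.2 ± 0.356 CPM (SD, n = 3) in TGF-β cells, so that the spread was widest among the controls. P2RY2 rose 3.11-fold with TGF-β (log2 fold change 1.64, SE 0.20, 95% interval 1.18 to 2.10, edgeR adjusted p = 0.00258). Against control, the TGF-β + uridine group was 3.14-fold higher (edgeR log2 fold change 1.65, SE 0.20, adjusted p = 0.00228). Uridine added to TGF-β gave a log2 fold change of 0.01, with a 95% interval from -0.43 to 0.46. In these bulk libraries, more cells with the transcript and more transcript per cell cannot be told apart, for P2RY2 as for every gene below.

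P2RY6, the UDP receptor gene, is the neighbour of P2RY2 on chromosome 11 (73264505 to 73298617), 28152 bases beyond it on the same strand, and it was called in no comparison. It measured 22.8, 15.3 and 12.96 CPM in control, 16.0, 11.7 and 14.3 CPM in TGF-β and 15.7, 16.2 and 13.6 CPM in TGF-β + uridine libraries. The 3 groups overlapped, and control replicate 1 was the highest library. The log2 fold change was -0.28 with TGF-β (edgeR adjusted p = 0.830), 0.11 with uridine added (adjusted p = 0.991) and -0.17 for both against control (adjusted p = 0.846).

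NT5E, which encodes CD73 and lies on chromosome 6 from 85449584 to 85495791, rose with TGF-β. The values were 1.72, 2.62 and 2.92 CPM in control, 5.96, 5.93 and 7.72 CPM in TGF-β and 5.98, 4.23 and 5.33 CPM in TGF-β + uridine libraries. Every treated library lay above every control library, and the treated groups overlapped each other. Group means were 2.42 ± 0.624, 6.54 ± 1.03 and 5.18 ± 0.881 CPM (SD, n = 3 each). The gene was 2.70-fold higher with TGF-β than in control (log2 fold change 1.43, SE 0.26, 95% interval 0.85 to 2.02, edgeR adjusted p = 0.0170). With TGF-β and uridine it was 2.14-fold higher than in control (edgeR log2 fold change 1.096, SE 0.26, adjusted p = 0.0436). The difference between TGF-β + uridine and TGF-β was -0.34 on the log2 scale, with a 95% interval from -0.91 to 0.23 (edgeR adjusted p = 0.829). The counts behind these values were low, between 58 and 139 in control and between 162 and 317 in treated libraries. The call against control in the TGF-β + uridine group was lost in 12 of 21 alternative settings, among them replicate number as a block (edgeR adjusted p = 0.0794) and the model of only the 2 groups (0.189). Leaving out 1 library lost it for each library except control replicates 1 and 3, with edgeR adjusted p-values from 0.0669 to 0.171. The call with TGF-β was lost in 5 of 21, in the model of only the 2 groups (edgeR adjusted p = 0.0676), without control replicate 2 (0.0732) and without TGF-β replicate 1, 2 or 3 (0.0589, 0.0608 and 0.0911). In all these settings the log2 fold change stayed above 0.

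**Figure D2:**
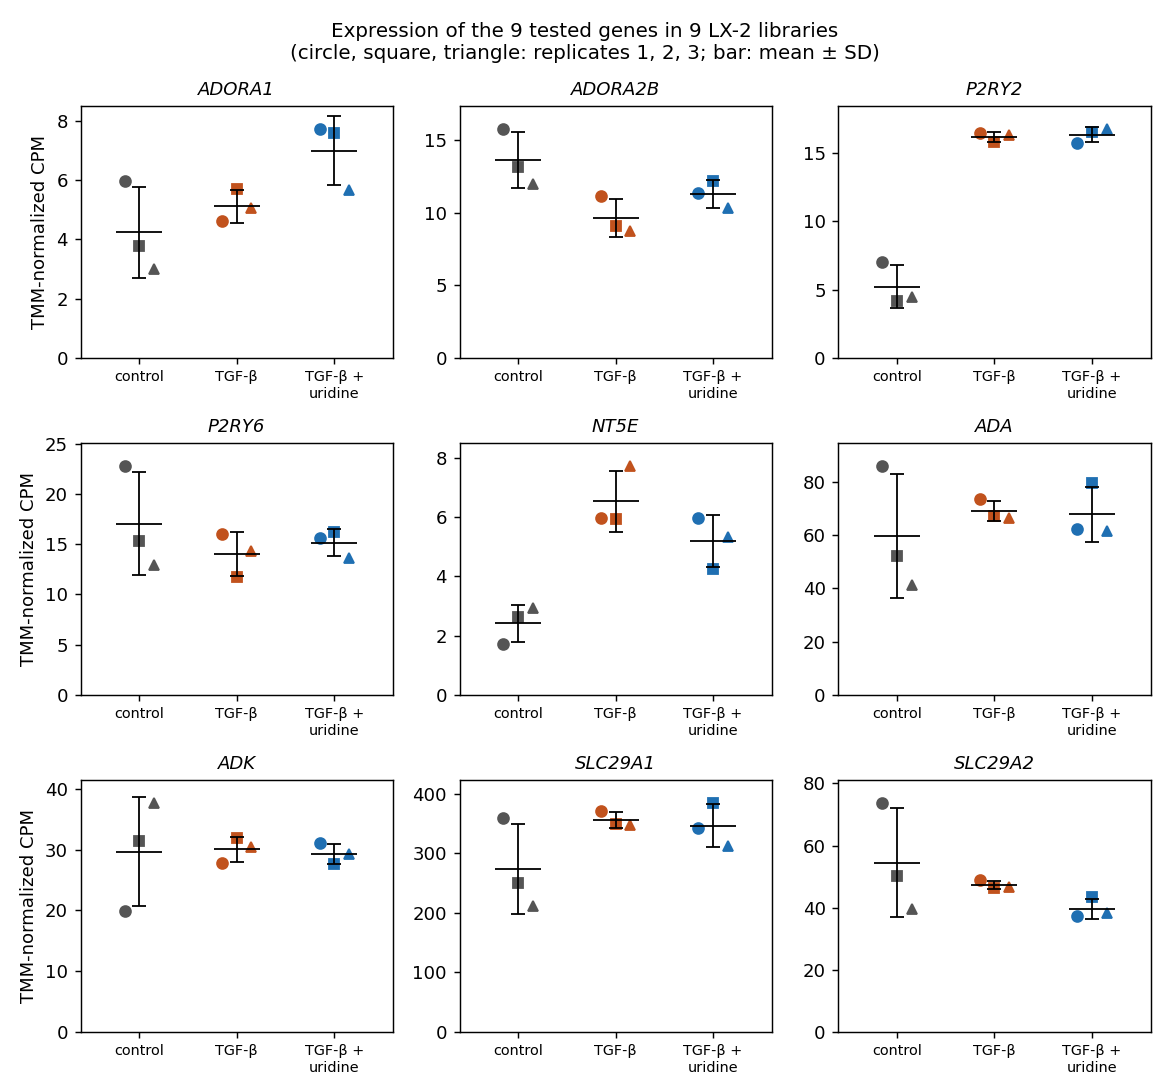
TMM-normalized CPM of the 9 tested genes, 1 panel per gene with its own scale from 0, by group on the x axis; points are libraries and bars are mean ± SD (n = 3). All treated libraries of P2RY2 and NT5E lie above the control libraries, and control replicate 1 (circle) is the highest control library for 7 genes and the lowest for NT5E and ADK.

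ADORA1, the Gi-coupled A1 receptor gene on chromosome 1, was called in none of the comparisons, and its mean was highest in the TGF-β + uridine group. It was measured at 5.95, 3.76 and 2.999 CPM in control, 4.60, 5.69 and 5.04 CPM in TGF-β and 7.72, 7.61 and 5.67 CPM in TGF-β + uridine libraries. Replicates 1 and 2 of TGF-β + uridine were the highest, and replicate 3 fell within the control and the TGF-β values. Uridine added to TGF-β gave a log2 fold change of 0.45 (SE 0.27, 95% interval -0.16 to 1.07, edgeR adjusted p = 0.740). The combined comparison gave 0.73 (SE 0.27, 95% interval 0.11 to 1.35) in edgeR's test (unadjusted p = 0.0267, adjusted p = 0.200), and the exact permutation p was 0.2. The TGF-β comparison gave 0.27 (SE 0.27, edgeR adjusted p = 0.910). The paper, by contrast, includes ADORA1 among the genes changed after uridine in its own RNA-seq analysis, for which it names no test. It also reports higher ADORA1 mRNA by RT-qPCR and higher protein with uridine. The FPKM scale divides by the library total and not by TMM factors. On it the TGF-β + uridine libraries (1.91 to 2.50) lay above all TGF-β (1.39 to 1.77) and all control libraries (1.08 to 1.53). The share of all genes separated on the FPKM scale was not counted, for ADORA1 or for the genes below. On TMM-normalized CPM, where ADORA1 overlapped, 25.6% of all genes tested were separated in the uridine and 19.7% in the combined comparison. The combined call was gained in 5 of 21 alternatives. Among them was the covariate for GC slope (edgeR adjusted p = 0.000909), with which 4162 of 13384 genes were called. Another was the fit without control replicate 1 (log2 fold change 1.03, edgeR adjusted p = 0.0138), with 2413 of 13684 genes called. Without control replicate 2 or 3 the log2 fold change was 0.65 and 0.53 (edgeR adjusted p = 0.483 and 0.297).

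ADORA2A, the A2a receptor gene on chromosome 22, had 0 counts in all control and TGF-β libraries and 1, 0 and 4 counts in the TGF-β + uridine libraries. These numbers are too low to show a difference between groups, and 56.8% of its exon bases are shared with the readthrough gene SPECC1L-ADORA2A on the same strand. ADORA2B, the A2b receptor gene on chromosome 17 (15944917 to 15975746), had lower values after TGF-β without passing the test. It was at 15.8, 13.2 and 11.95 CPM in control, 11.1, 9.08 and 8.74 CPM in TGF-β and 11.3, 12.2 and 10.3 CPM in TGF-β + uridine libraries. Every TGF-β library lay below every control library, while the TGF-β + uridine libraries overlapped both other groups. On the FPKM scale the TGF-β + uridine libraries (1.92 to 2.03) lay between the TGF-β (1.52 to 1.86) and the control libraries (2.23 to 2.38), without overlap. In CPM ADORA2B was 1 of 3 tested genes without overlap between TGF-β and control, with P2RY2 and NT5E. The share of all genes tested was 17.7% (9.72% higher and 7.96% lower). The log2 fold change with TGF-β was -0.50 (SE 0.17, 95% interval -0.88 to -0.11), in edgeR's test (unadjusted p = 0.0164, adjusted p = 0.210), with an exact permutation p of 0.1. For uridine added to TGF-β it was 0.23 (edgeR adjusted p = 0.828), and for both against control -0.27 (adjusted p = 0.504). With the covariate for GC slope the TGF-β difference had an edgeR adjusted p of 0.00433, and 2715 of all 13384 genes were called. That slope was itself estimated from these same libraries.

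ADA and ADK encode the enzymes that clear adenosine inside the cell, adenosine deaminase on chromosome 20 (44619522 to 44652233) and adenosine kinase on chromosome 10 (74151185 to 74709303). ADA was measured at 86.0, 52.0 and 41.1 CPM in control, 73.6, 67.2 and 66.5 CPM in TGF-β and 62.1, 79.7 and 61.6 CPM in TGF-β + uridine libraries. ADK was measured at 19.965, 31.4 and 37.7 CPM in control, 27.9, 31.9 and 30.5 CPM in TGF-β and 31.0, 27.6 and 29.3 CPM in TGF-β + uridine libraries. For both genes the control libraries spanned the treated ones, and their order among the controls was opposite. Log2 fold changes lay between -0.03 and 0.21 for ADA and between -0.04 and 0.02 for ADK, with edgeR adjusted p-values of 0.844 or more. Without control replicate 1, which had the steepest GC slope, ADA was 0.57 higher on the log2 scale with TGF-β (edgeR adjusted p = 0.0381) and 0.52 higher with both agents (adjusted p = 0.0320). That fit called 1085 and 2413 of all 13684 genes in these comparisons. Without control replicate 2 the ADA values were 0.12 and 0.094 (edgeR adjusted p = 0.996 and 0.979). Without control replicate 3 they were 0.0026 and -0.025 (edgeR adjusted p = 0.996 and 0.954). Of the ADA exon bases, 1.61% lie opposite PKIG, and the strand setting of the counting is not given in the sources used here.

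SLC29A1 and SLC29A2 encode ENT1 and ENT2, the transporters that let adenosine and uridine cross the plasma membrane. SLC29A1, on chromosome 6 (44219505 to 44234151), had 358.6, 249.97 and 211.8 CPM in control, 370.7, 348.995 and 346.8 CPM in TGF-β and 341.7, 384.2 and 312.8 CPM in TGF-β + uridine libraries. Control replicate 1 overlapped the treated libraries and control replicates 2 and 3 lay below all of them. The log2 fold change with TGF-β was 0.38 (SE 0.18, 95% interval -0.03 to 0.79, edgeR adjusted p = 0.474), and with uridine added it was -0.04 (adjusted p = 0.999). On the FPKM scale all control libraries (78.0 to 93.6) lay below all TGF-β (110.7 to 114.4) and all TGF-β + uridine libraries (107.7 to 113.7). The share of all genes separated in this way on that scale was not counted. The TGF-β call was gained in 5 of 21 alternatives. They included both limma fits on log2 FPKM (limma adjusted p = 0.00938 and 0.00984, with 850 and 830 of 13384 genes called). The fit without control replicate 1 was another (log2 fold change 0.62, edgeR adjusted p = 0.00766, with 1085 of 13684 genes called). Without control replicate 2 or 3 the log2 fold change was 0.32 and 0.22 (edgeR adjusted p = 0.841 and 0.526).

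SLC29A2, on chromosome 11 (66362521 to 66372214), had its lowest mean in the TGF-β + uridine group. Its CPM was 73.7, 50.3 and 39.4 in control, 48.8, 46.4 and 46.5 in TGF-β and 37.4, 43.3 and 38.3 in TGF-β + uridine libraries. In CPM it was the 1 gene of 9 whose TGF-β + uridine and TGF-β libraries did not overlap, all of the former being lower. The share of all genes tested was 25.6%, with 12.8% in each direction. The log2 fold change of that comparison was -0.25 (SE 0.20, 95% interval -0.71 to 0.20, edgeR adjusted p = 0.840, exact permutation p = 0.1). Against control it was -0.20 with TGF-β (edgeR adjusted p = 0.905) and -0.46 with both agents (unadjusted p = 0.0489, adjusted p = 0.279). In that last comparison 2 of 9 genes, P2RY2 and NT5E, did not overlap between groups in CPM, both being higher. The share of all genes tested was 19.7% (10.5% higher and 9.2% lower). On the FPKM scale the TGF-β + uridine libraries of SLC29A2 (9.10 to 9.70) also lay below all its control libraries (10.7 to 14.2). An antisense gene, AP001107.9, covers 10.3% of the exon bases of SLC29A2.

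The spread among the control libraries followed the GC slope for most of the 9 genes, as it did for most genes tested. From control replicate 3 (slope -4.10) through replicate 2 to replicate 1 (slope 5.65), ADORA1, ADORA2B, P2RY6, ADA, SLC29A1 and SLC29A2 were higher at each step, and NT5E and ADK were lower. P2RY2 was not ordered. These 8 of 9 genes compare with 77% of all genes tested that were ordered one way or the other in the controls. In the TGF-β libraries, whose slopes were close to 0, 5 of 9 genes were ordered (background 35.6%), and in the TGF-β + uridine libraries 4 of 9 (background 56.4%). ADORA1 fell with the slope in the TGF-β libraries, opposite to its order in the controls. The GC content of the longest transcript was 43.8% for ADORA2B and 53.8% (ADA) to 61.1% (SLC29A2) for the other genes of the first set. It was 45.2% for NT5E and 41.7% for ADK, the second set. The length implied by FPKM was 3.09 times that transcript for ADORA2B and 2.87 times for P2RY6. It was 1.96 times for ADK, 1.7 times for SLC29A2 and 1.35 times for SLC29A1. The GC values of all these genes may therefore not describe the bases counted. The part of gene GC content in these directions was not tested. The GC slope of each library was estimated from these same counts. With it as a covariate edgeR called 5, 2 and 6 of the 9 genes in the TGF-β, uridine and combined comparisons. Of all genes, 2715, 2554 and 4162 were called. ADORA2B, ADA and SLC29A1 were added in the TGF-β comparison, ADORA1 and SLC29A2 in the uridine comparison, and ADORA1, ADA, SLC29A1 and SLC29A2 in the combined comparison. The 2 calls of the uridine comparison (edgeR adjusted p = 0.0385 for ADORA1 and 0.0323 for SLC29A2) were lost when the replicate block was added to the covariate (0.0769 and 0.0664). The GC slope and the other differences of control replicate 1 from its group cannot be told apart, and their part in the calls was not tested further.

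**Figure D3:**
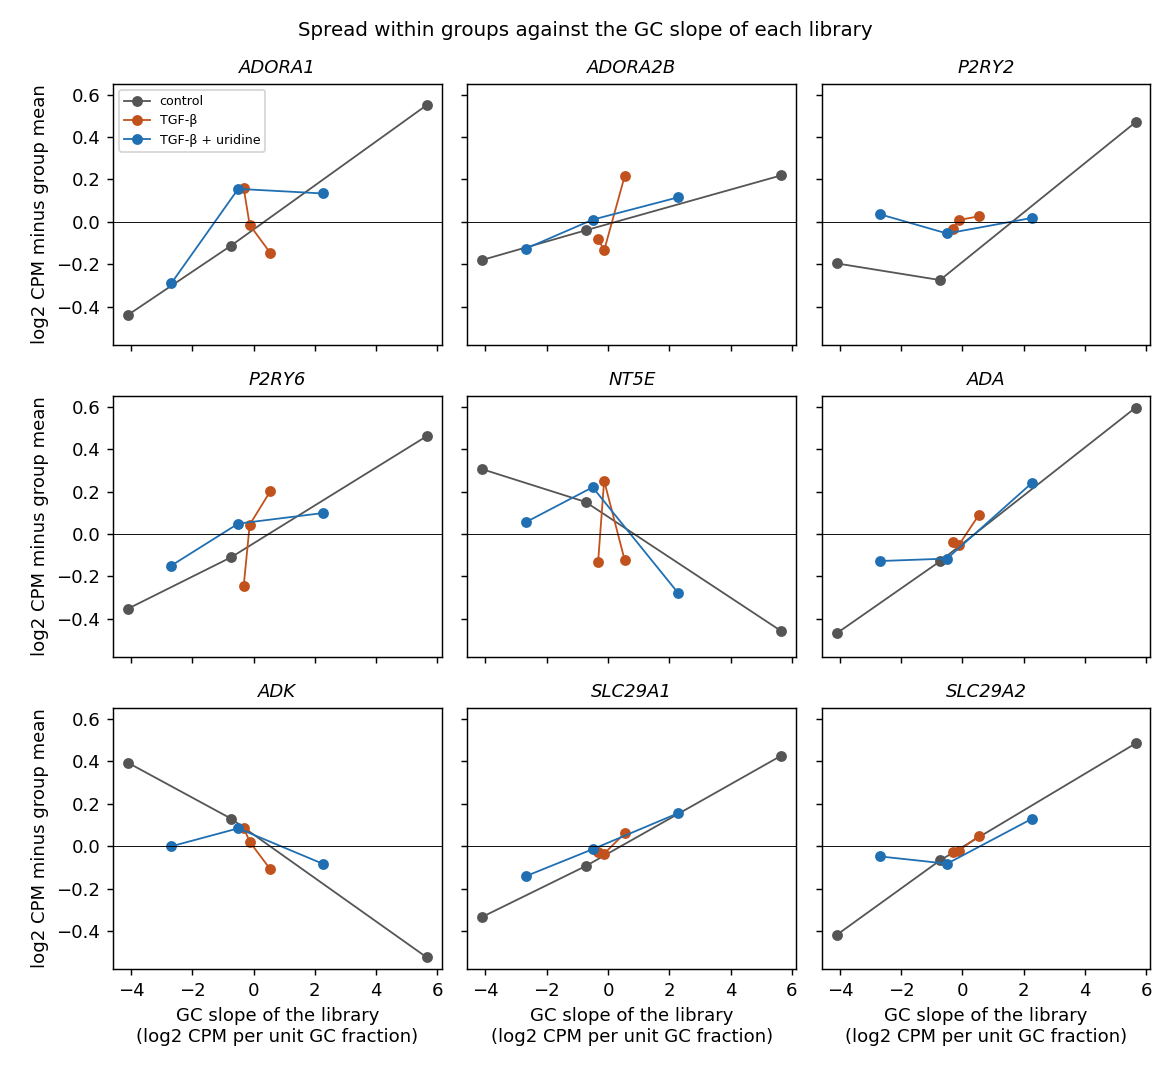
Deviation of each library from its group mean (log2 CPM, y axis) against the library's GC slope (log2 CPM per unit GC fraction, x axis), 1 panel per gene, with the libraries of a group joined by a line. The control line rises for 6 genes, falls for NT5E and ADK, and is not ordered for P2RY2.

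Levels per gene length were compared on the FPKM scale. SLC29A1 was highest, with a mean of 102.7 FPKM over the 9 libraries (range 78.0 to 114.4), followed by ADA with 43.3 (31.8 to 49.5), SLC29A2 with 10.9 (9.10 to 14.2) and ADK with 6.91 (3.75 to 9.99). The receptor genes and NT5E came lower, at 2.18 for P2RY6 (1.67 to 2.67), 1.98 for ADORA2B (1.52 to 2.38), 1.69 for ADORA1 (1.08 to 2.50), 1.42 for P2RY2 (0.491 to 2.05) and 1.34 for NT5E (0.396 to 2.18). ADORA2A was last. The ranges of SLC29A1 and ADA, of ADA and SLC29A2, of ADK and P2RY6, and of NT5E and ADORA2A did not overlap. SLC29A2 and ADK overlapped, and over all 9 libraries each of the 5 genes from P2RY6 to NT5E overlapped its neighbour. Their order differed between groups. In control, ADORA2B (2.23 to 2.38 FPKM) lay above ADORA1 (1.08 to 1.53), and ADORA1 above NT5E (0.396 to 0.947) and P2RY2 (0.491 to 0.651), which overlapped. In TGF-β + uridine libraries ADORA1 had the highest mean of the 5, with 2.21 FPKM, and overlapped P2RY6. These orders rest on the gene lengths of the deposited FPKM, and ADORA1 did not keep its place with another length (below). In deposited FPKM, both transporter genes and both intracellular enzyme genes lay above every receptor gene in every library. Among all listed genes SLC29A1 stood at the 96.8 percentile of mean FPKM and NT5E at the 61.5 percentile.

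Levels per length rest on the gene length that FPKM used. The length implied by counts and FPKM was 8848 bases for P2RY2, 3.33 times its longest GENCODE v29 transcript of 2660 bases. The same ratio was 3.09 for ADORA2B and 2.87 for P2RY6, but 0.94 for ADORA1 and 0.909 for NT5E. With the longest transcript as the length, a choice made after seeing the data, P2RY2 moved above ADORA1, with means of 4.73 and 1.59 on the FPKM scale rebuilt with these lengths. By mean over the 9 libraries the other genes kept their order. On this scale ADORA1 (1.02 to 2.35) lay below P2RY6 (4.81 to 7.685) and ADORA2B (4.69 to 7.38) in all libraries. ADORA1 therefore had the highest mean of the 5 in no group. The ranges of ADK (7.37 to 19.6) and P2RY6 overlapped, and in control replicate 1 P2RY6 lay above ADK. Comparisons between groups are not touched by the length, since 1 length per gene held in all libraries.

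**Figure D4:**
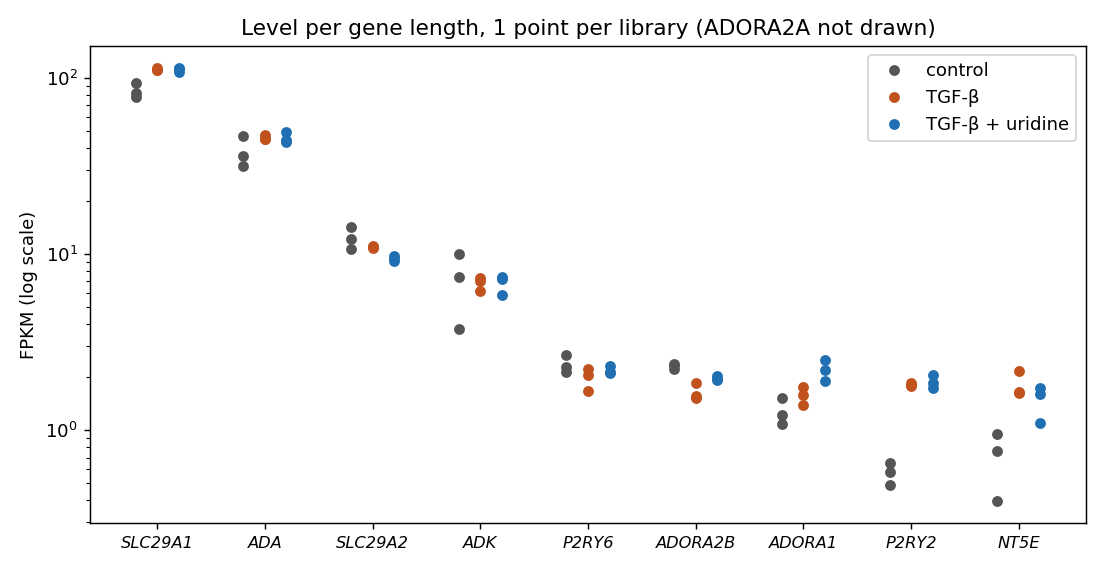
Deposited FPKM (y axis, log scale) of the 9 genes that passed the filter, ordered by mean, with 1 point per library coloured by group. SLC29A1 lies at 78.0 to 114.4 and the 5 genes from P2RY6 to NT5E lie between 0.396 and 2.67, with overlapping ranges.

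Further genes of the pathway were taken as 5 lists of 48 genes, of which 38 were listed and 23 tested. After TGF-β edgeR called 0 of the 23, against 3.38% of all genes tested, and 3 had an unadjusted p under 0.05 (12.1% of all genes). DESeq2 called 1 of them, ENTPD2, and 719 of 14704 genes in all. With uridine added to TGF-β edgeR called 0 (0.0448% of all genes), 2 had an unadjusted p under 0.05 (8.79%), and DESeq2 called 0. Between TGF-β + uridine and control edgeR called 1 of 23, or 4.35%, against 5.33% of all genes, and 7 had an unadjusted p under 0.05 (17.6%). DESeq2 called 4 in that comparison (ENTPD2, P2RX6, PANX2 and SLC29A3) and 1103 of 14704 genes in all. The median log2 fold changes of the 23 genes were -0.11, 0.00 and -0.15, and those of all genes tested were -0.05, 0.02 and -0.01. The gene called by edgeR was SLC29A3, which encodes the lysosomal transporter ENT3. It fell from 12.8 ± 2.86 CPM (SD, n = 3) in control to 7.45 ± 0.0221 CPM (SD, n = 3) in TGF-β + uridine cells (log2 fold change -0.78, SE 0.18, edgeR adjusted p = 0.0411), with 10.9 ± 0.643 CPM in TGF-β cells.

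The genes named next were chosen after their values had been seen. Of the other receptors, only the ATP-gated channels P2RX4, P2RX5 and P2RX6 were tested, of 14 fixed and 8 listed. P2RX4 averaged 4.04, 3.31 and 2.63 FPKM in the control, TGF-β and TGF-β + uridine groups. Its log2 fold change for both agents against control was -0.69 (edgeR adjusted p = 0.226). Among 10 genes for extracellular breakdown and ADA anchoring, 2 were tested. ENTPD2, an ecto-enzyme that acts upstream of CD73, averaged 2.84, 1.47 and 1.78 FPKM, with a log2 fold change of -0.96 after TGF-β (SE 0.22, edgeR adjusted p = 0.0561). ENTPD1, CD38 and DPP4, with 4 counts or fewer in every library, failed the filter. Of 14 genes for intracellular AMP and adenosine turnover, 11 were tested and none was called by edgeR. AHCY, which releases adenosine from S-adenosylhomocysteine, averaged 128.1, 112.3 and 121.0 FPKM, and PNP, which splits inosine and guanosine, 89.7, 108.7 and 123.3 FPKM.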

How the data were processed

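RNA of 9 LX-2 libraries was sequenced. The authors deposited whole-number counts of reads per gene symbol, not normalized, and FPKM values, for which dividing the counts gave 1 gene length in all libraries (largest ratio between libraries 1). The submitters' processing notes name fastp, HISAT2, HTSeq, R 3.2.0 and GRCh38.p13. The annotation release and the strand setting are not given in the sources used here. Totals of 40539751 to 41467124 counts set the precision.

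Groups came from the sample labels, and all 9 columns of both tables were used. The counts were fitted with edgeR 4.0.16 in R 4.3.3 (filterByExpr, TMM, glmQLFit, glmQLFTest, 1 model of group over 9 libraries), with p-values adjusted over all 13384 genes tested. Standard errors were derived from the quasi-likelihood F statistic. CPM are TMM-normalized. Single genes were also compared by exact two-sided permutation tests. Alternatives were DESeq2 1.42.0, RLE and upper-quartile normalization, other filters on low counts (none, or at least 10 counts in every library), an absolute log2 fold change of at least 1, only the 2 groups compared, replicate number as a block, a GC slope covariate (GENCODE v29, 12319 of 13384 genes matched by symbol), limma 3.58.1 on log2(FPKM + 1) and log2(FPKM + 0.1), and each library left out. The scripts were tested on simulated counts first.

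The named genes were the 10 genes described, every gene of 5 further pathway lists that edgeR called, and the 3 genes most like ADORA1, with ENTPD2, P2RX4, AHCY, PNP, PANX2 and genes at or near 0 named after their values had been seen. These genes, lists and motifs were chosen with earlier results of these data known. The levels per longest transcript were added after the data had been seen. A result for 1 gene of the label check is not reported here.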

Additional observations from a re-analysis of the deposited data

How the results depend on the processing

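P2RY2 passed the threshold in 21 of 21 alternatives in both comparisons with control, with edgeR, DESeq2 or limma adjusted p-values of at most 0.0274 after TGF-β. The number of genes called moved with the settings, from 453, 6 and 714 in the TGF-β, uridine and combined comparisons (2, 0 and 2 of the 9 genes described). DESeq2 called 719, 117 and 1103, limma 850, 298 and 1484 on log2(FPKM + 1), and 830, 277 and 1462 on log2(FPKM + 0.1), where 4 of the 9 were called in the combined comparison. Upper-quartile normalization called 10 genes with uridine. A fold change limit of 1 on the log2 scale left 2 with uridine and 422 combined. Without a filter on low counts 549 of 20777 genes were called in the combined comparison, and 1 of the 10 genes described, all then tested. Models of only the 2 groups called 229, 317 and 222 genes, with 1 of the 9 in the TGF-β and 1 in the combined comparison. The GC slope covariate gave 2715, 2554 and 4162 genes and 5, 2 and 6 of the 9. Leaving out 1 library gave 218 to 1085, 0 to 271 and 304 to 2413 genes, and 1 to 4 of the 9 after TGF-β and 1 to 5 combined.

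Whether the replicate numbers pair the samples could not be decided from correlations of deviations from group means. These also carry the differences in GC slope between libraries. Of 9 pairs with the same number, 2 had a correlation over 0.1 (range -0.21 to 0.56), and different numbers spanned -0.66 to 0.63. With the replicate block edgeR called 314, 0 and 437 genes and 1 of the 9 in the combined comparison, where NT5E was lost. The block with the GC covariate gave 2340, 2072 and 3756 genes, and 5, 0 and 6 of the 9.

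Signs turned only in comparisons where the gene had no call. The combined log2 fold change of ADK was 0.017 with the replicate block, 0.036 and 0.055 with limma and -0.26 to 0.19 without 1 library. That of ADA with uridine was 6e-04 with the block and GC covariate, and -0.16 to 0.037 without 1 library. The other ranges without 1 library that crossed 0 were, after TGF-β, ADK -0.20 to 0.23 and SLC29A2 -0.39 to 0.072. With uridine they were P2RY2 -0.004 to 0.041, P2RY6 -8e-04 to 0.22, ADK -0.089 to 0.0057 and SLC29A1 -0.12 to 0.030. Combined they were P2RY6 -0.33 to 0.081 and ADA -0.025 to 0.52. The cause was not tested. All 30 group levels in FPKM stayed within 1 SD with TMM-normalized CPM per kilobase. Low counts limit ADORA2A, and 3 libraries a group limit every test.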

Other observations

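By Pearson correlation of log2 CPM over the 9 libraries, among tested genes averaging 1 or more in log2 CPM, those whose pattern was most like that of ADORA1 were PLCG1 (r = 0.98), DGCR2 (r = 0.97) and LMAN2L (r = 0.97). The points share the 3 groups and the differences in GC slope between libraries, and 7.23% of the genes compared had an r above 0.8 with ADORA1. PLCG1, which encodes a phospholipase C, averaged 70.2, 75.2 and 85.8 CPM in the control, TGF-β and TGF-β + uridine groups.

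Of 5 genes for routes of ATP release, 3 were tested and none was called by edgeR in any comparison. PANX2, a pannexin gene, averaged 33.1 ± 7.82, 32.8 ± 1.29 and 21.3 ± 1.80 CPM (SD, n = 3 each) in the control, TGF-β and TGF-β + uridine groups, with a log2 fold change of -0.62 for uridine added to TGF-β (SE 0.17, edgeR adjusted p = 0.302) and -0.64 for both against control (SE 0.17, adjusted p = 0.0632). DESeq2 called PANX2 in the latter comparison.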
